A study of Mus musculus with 30 samples.

Results

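The genes by which muscle cells take up, transport and burn fatty acids, together with the PGC-1 coactivators and nuclear receptors that regulate them, were followed as a list of 39 named genes among the 55487 genes of the count table. Of these, 37 passed the filter on low counts that left 15907 genes to test. The other 2, Fabp4 and Plin5, were at or near 0 throughout. The genes were chosen by name and pathway, with earlier results of these data known. Of the 37 tested, 23 passed the test in at least 1 comparison and 14 in none.

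The cells were C2C12 myotubes, which form when this immortalised wild-type mouse myoblast line leaves the cell cycle and fuses. All 5 groups were first differentiated for 4 days in low glucose medium with 2% horse serum. They were then kept for another 4 days under the group's condition, 8 days in all, with 6 libraries a group. The 2% HS group stayed on 2% horse serum. The SD group was serum deprived, with no horse serum. The MET, LEU and MET+LEU groups were serum deprived in the same way with 100 nM metformin, with 500 nM leucine, or with 100 nM metformin and 500 nM leucine. Serum deprivation served as a model of myotube atrophy, in a dish of cells from a cell line without nerve, blood supply or load. No source used here says that the 6 replicates came from separate passages or days, so the p-values measure the spread between these cultures, which may be technical.

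Libraries held 12784960 to 19604103 counts. Counts on nuclear rRNA genes made up 5.85% of MET+LEU replicate 6 and at most 1.956% of any other library, and mitochondrial rRNA made up 7.64% of it against at most 0.760%, so that the members' calls in MET+LEU comparisons are also described without this library. The myotube markers Myh3, Myh1, Ckm, Acta1, Tnnt3, Actn2, Myog and Mymk were all expressed. Their summed level was 9362 to 9941 CPM in 2% HS, 8226 to 9505 CPM in SD and 9094 to 10851 CPM in MET+LEU. In SD vs. 2% HS, Ckm (-0.98, adjusted p = 6.2e-10), Myh1 (-0.39) and Actn2 (-0.34) were lower. Myh3, Acta1, Tnnt3, Myog and Mymk did not pass there. In MET+LEU vs. SD, Tnnt3 (0.82), Myh1 (0.46) and Myh3 (0.36) were higher (adjusted p at most 0.00479). Ckm, Acta1, Actn2, Myog and Mymk did not pass in that comparison. The summed level of 5 myoblast or cycling-cell markers was 344 to 368 CPM in 2% HS, 302 to 340 CPM in SD and 266 to 289 CPM in MET+LEU. Pax7, a marker of muscle stem cells and the most abundant of the 5, was lower in SD than in 2% HS (-0.37, adjusted p = 1.2e-10), where the cycling-cell genes Mki67, Top2a and Ccnb1 did not pass (0.0028 to 0.14). In MET+LEU vs. SD these 3 were lower, by -0.35 to -0.89 (adjusted p at most 0.0263), and Pax7 did not pass (0.06, adjusted p = 0.352). The part of these shifts in the results below was not tested. The 6 adipocyte markers summed to at most 0.229 CPM in any library. Of the macrophage markers, Cd68 was the only one of 4 that passed the count filter. In such bulk samples, fewer cells of a type and less RNA per cell cannot be told apart.

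Long-chain fatty acids enter a muscle fibre after lipoprotein lipase frees them from circulating triglyceride and CD36 and fatty acid binding proteins carry them in. Acyl-CoA synthetase activates them, the carnitine shuttle moves them across the mitochondrial membranes, and the beta-oxidation spiral shortens them while handing electrons to the electron transfer flavoprotein and the respiratory chain. Malonyl-CoA, which malonyl-CoA decarboxylase removes, is the brake on the shuttle. In skeletal muscle much of this set is transcribed under PPAR-delta, PPAR-alpha and the estrogen-related receptors, with PGC-1alpha and PGC-1beta as their coactivators, and it is known for its response to fasting and endurance exercise.

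Serum deprivation moved the list in both directions. In SD vs. 2% HS, 4 of the 37 tested members rose (10.8%, where 13.9% of all tested genes rose) and 11 fell (29.7%, where 13.9% of all tested genes fell). Angptl4, Cpt1a, Lpl and Acadl rose. Ppargc1a, Ppargc1b, Esrrg, Cd36, Acsl1, Echs1, Acaa2, Ucp3, Plin2, Acot1 and Acot2 fell. The median log2 fold change of the members was 0.01 and that of all tested genes 0.00. The fitted changes are drawn below by role, and "rose" and "fell" stand for an adjusted p under 0.05 over all tested genes.

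**Figure D1:**
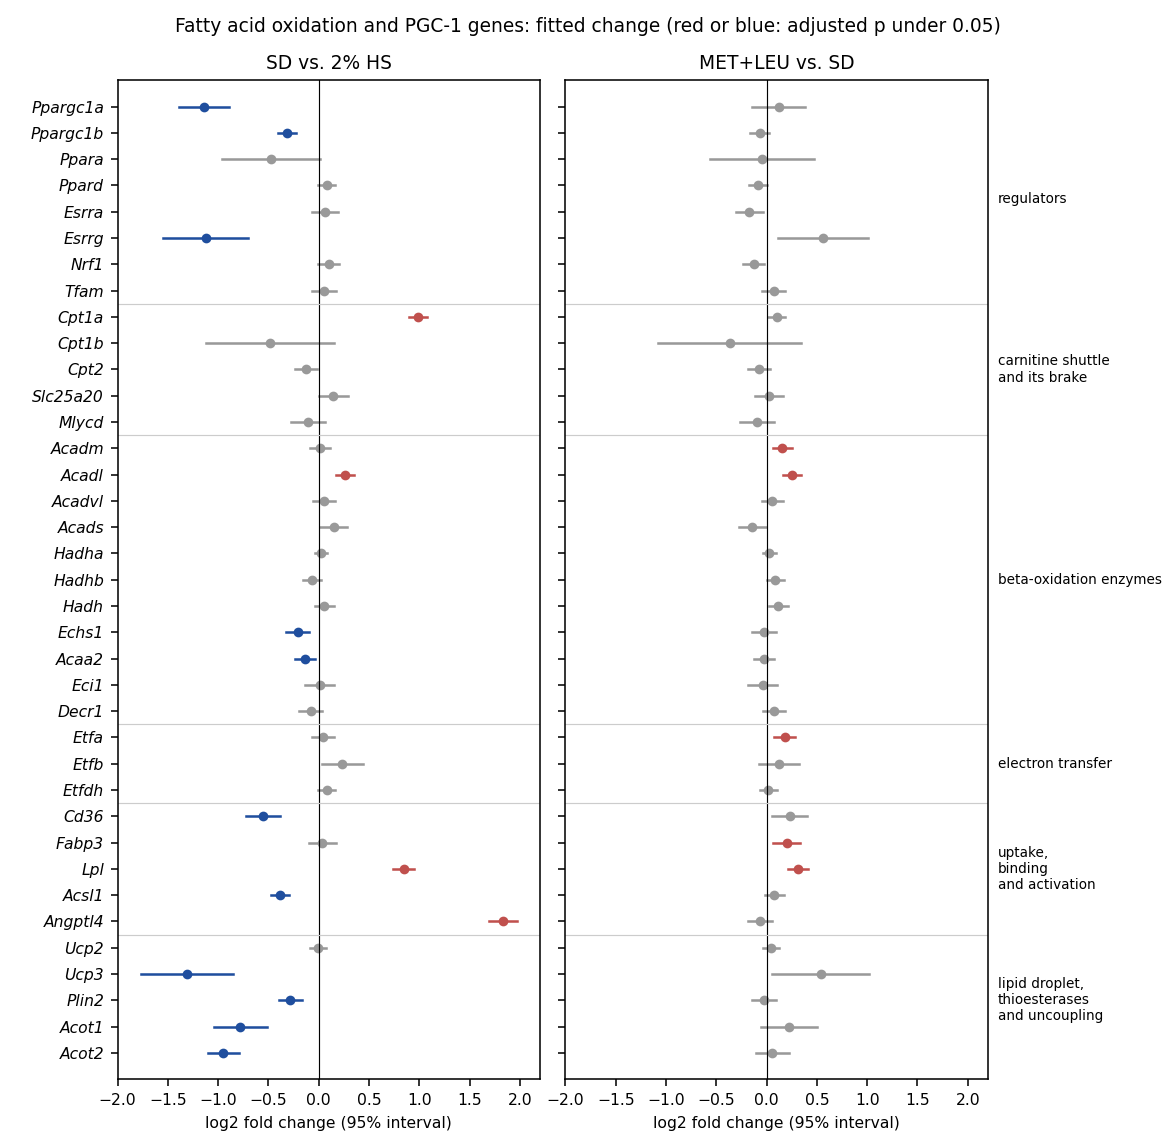
Fitted log2 fold change (x axis) with its 95% interval for each of the 37 tested members (y axis, by role) in SD vs. 2% HS on the left and MET+LEU vs. SD on the right, with red for a rise and blue for a fall at an adjusted p under 0.05. Changes with serum deprivation ran from -1.31 for Ucp3 to 1.83 for Angptl4, and no member passed the test for a fall in MET+LEU vs. SD.

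Among the 8 regulators, 3 fell and none rose with serum deprivation, where 13.9% of all tested genes fell and 13.9% rose. Ppargc1a encodes PGC-1alpha, the coactivator that drives mitochondrial biogenesis and oxidative genes, and lies at chr5:51454250-51567726, minus strand of GRCm38. Its level was 7.39 to 10.2 CPM (median 8.59) in 2% HS and 3.52 to 4.06 CPM (median 3.96) in SD. Every SD library lay below every 2% HS library, and the log2 fold change was -1.14 ± 0.12 (SE), 2.204-fold lower (adjusted p = 3.1e-10). Ppargc1b, for the related coactivator PGC-1beta, was at 65.6 to 72.4 CPM (median 66.7) in 2% HS and 50.7 to 61.8 CPM (median 52.6) in SD. These groups did not overlap either, but the change was smaller, at -0.31 ± 0.05 (adjusted p = 5.7e-07). Esrrg encodes ERR-gamma, an orphan receptor of oxidative fibres. It was at 1.87 to 2.79 CPM (median 2.31) in 2% HS and 0.642 to 1.26 CPM (median 1.101) in SD, without overlap, a change of -1.13 ± 0.22 (adjusted p = 5.3e-05). It is a low-count gene, and its SE was the widest of the called regulators.

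The other 5 regulators passed in no comparison of the study. They were Ppara and Ppard, for the PPAR-alpha and PPAR-delta receptors, Esrra, for ERR-alpha, Nrf1, for a factor that switches on respiratory chain genes, and Tfam, for the factor that packages and transcribes mitochondrial DNA. Ppard stayed between 46.1 and 56.3 CPM, Esrra between 31.2 and 46.9 CPM, Nrf1 between 28.4 and 36.8 CPM and Tfam between 23.6 and 30.1 CPM over all 30 libraries. Ppara was near the limit of detection, at 0.574 to 1.88 CPM. Its log2 fold change in SD vs. 2% HS was -0.47 ± 0.25, with a 95% interval of -0.97 to 0.02 and an adjusted p of 0.159.

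Related regulators differed widely in level. Per kilobase of annotated exon, Ppargc1b stood at 16.9 ± 0.646 CPM per kilobase in 2% HS (± standard deviation, n = 6) and Ppargc1a at 1.31 ± 0.1402. Ppard was at 6.83 ± 0.235 and Ppara at 0.388 ± 0.0789 on the same scale, and Esrra at 8.86 ± 0.991 against 0.379 ± 0.0551 for Esrrg. The less abundant gene of each pair was the one with the more negative fitted change in SD vs. 2% HS. The within-library log2 ratio of Ppargc1a to Ppargc1b counts, which does not depend on scaling between libraries, averaged -2.96 ± 0.16 (± standard deviation, n = 6) in 2% HS and -3.78 ± 0.11 in SD. It was lower in SD by -0.82 (exact permutation test, two-sided, p = 0.00216, adjusted over 5 comparisons 0.00541), and 0.00216 is the smallest p that 6 against 6 libraries allow. No SD library reached the lowest ratio of the 2% HS group.

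**Figure D2:**
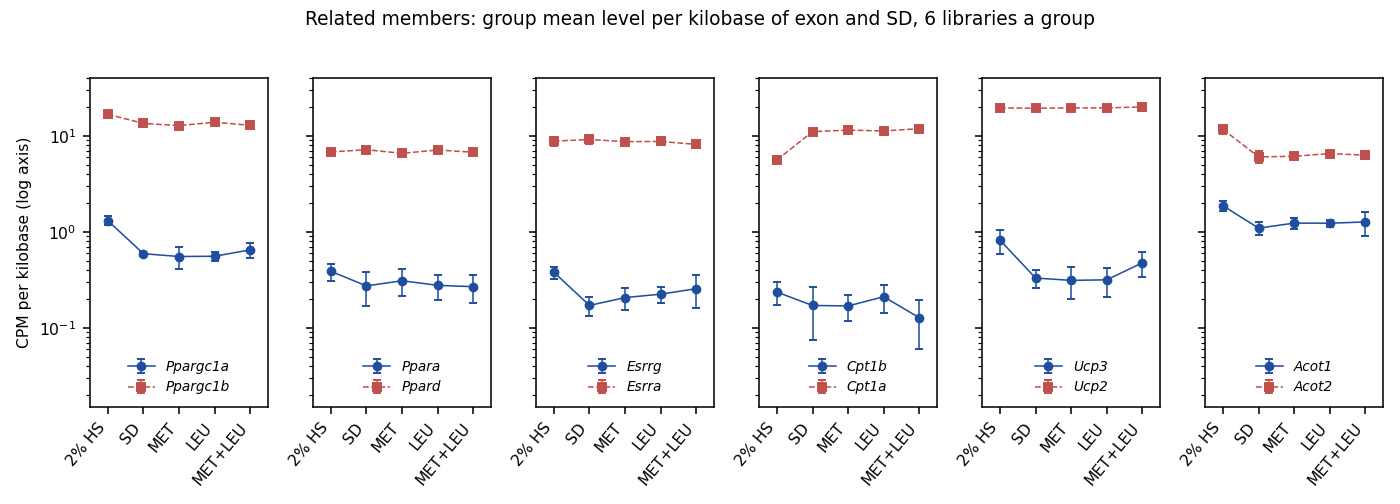
Mean level per kilobase of exon (y axis, CPM per kilobase, log axis) with the standard deviation over 6 libraries for 6 pairs of related members in each group (x axis), with circles for the less abundant gene and squares for the more abundant. Ppargc1a lay below Ppargc1b and Cpt1b below Cpt1a in all 5 groups.

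The bases just upstream of Ppargc1a are shown because this was the regulator with the largest fall. PGC-1alpha transcription is known to respond to cAMP through CREB, which binds the cAMP response element, and the capitals mark CGTCA, the short core of that element. This core was searched on both strands after the values had been seen. It occurs in 20.8% of the 32851 mouse promoter windows of the same length and in 10 of 38 windows of member genes, so its presence is a description of the letters and no evidence of binding. The sequence is from RefSeq, GRCm38.p6, chr5:51567726-51567975, minus strand, 5′ to 3′, and ends at the base before the RefSeq start site. GENCODE, the source of the gene coordinates above, starts the gene at the last base shown.
Ppargc1a upstream: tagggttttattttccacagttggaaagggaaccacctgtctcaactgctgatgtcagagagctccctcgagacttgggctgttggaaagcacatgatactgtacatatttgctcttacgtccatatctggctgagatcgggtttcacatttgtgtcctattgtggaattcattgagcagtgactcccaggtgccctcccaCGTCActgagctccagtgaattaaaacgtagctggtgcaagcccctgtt

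Among the genes of uptake, binding and activation, 2 rose and 2 fell of 5 tested, where 13.9% of all tested genes rose and 13.9% fell. Angptl4 encodes a secreted inhibitor of lipoprotein lipase and is a known PPAR-delta target, at chr17:33773750-33781830, minus strand. It was at 9.62 to 14.04 CPM (median 11.2) in 2% HS and 35.7 to 42.6 CPM (median 40.02) in SD. The groups lay far apart, and the change was 1.83 ± 0.07, or 3.56-fold (adjusted p = 1.5e-25), the largest rise in the list. Lpl, for the lipase that Angptl4 inhibits, rose alongside it. It was at 25.5 to 28.998 CPM (median 27.05) in 2% HS and 46.4 to 51.6 CPM (median 49.1) in SD. Its groups did not overlap, and the change was 0.84 ± 0.05 (adjusted p = 8.1e-18).

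Cd36, the membrane fatty acid transporter, moved the other way. It was at 18.4 to 21.8 CPM (median 20.2) in 2% HS and 12.1 to 16.2 CPM (median 13.2) in SD. Every SD library was below every 2% HS library, at -0.56 ± 0.09 (adjusted p = 1.1e-06). Acsl1, the acyl-CoA synthetase that commits fatty acids to oxidation in muscle, was at 51.8 to 55.6 CPM (median 53.5) in 2% HS and 38.8 to 45.4 CPM (median 40.2) in SD. The groups were again apart, at -0.38 ± 0.05 (adjusted p = 4.5e-09). Fabp3, the heart and muscle fatty acid binding protein, did not pass, at 0.03 ± 0.07 (adjusted p = 0.769). Fabp4, the adipocyte and endothelial binding protein, held 0 counts in every 2% HS library and at most 0.256 CPM in any library, so that only a limit can be given: where a library holds none, up to 3 of its counts remain possible.

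In the carnitine shuttle, Cpt1a alone of 5 tested genes passed with serum deprivation, where 13.9% of all tested genes rose and 13.9% fell. It encodes the liver-type form of carnitine palmitoyltransferase 1, the entry step of the shuttle, and lies at chr19:3322334-3385733, plus strand. Its level was 41.01 to 45.9 CPM (median 42.6) in 2% HS and 79.8 to 96.5 CPM (median 83.05) in SD. Each SD library lay well above the highest 2% HS library, with a change of 0.98 ± 0.05, or 1.98-fold (adjusted p = 6.3e-23). Cpt1b, the muscle-type form, was scarcely detected, with 3 to 17 counts a library. It was at 0.415 to 1.04 CPM (median 0.842) in 2% HS and 0.214 to 1.15 CPM (median 0.496) in SD, with overlap and a fitted change of -0.49 ± 0.33 (adjusted p = 0.282).

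The low value of Cpt1b has a limit in the annotation. In GENCODE M21, 81.4% of its exonic bases also belong to Gm44502, a gene model on the same strand, and 78.6% of its stretches of 50 bases occur there. How reads lying in 2 genes were counted is not given in the sources used here. Gm44502 itself held 0 to 4 counts a library. The log2 ratio of Cpt1a to Cpt1b counts was 5.75 ± 0.47 (± standard deviation, n = 6) in 2% HS and 7.29 ± 0.78 in SD. The difference of 1.53 passed (exact permutation test, two-sided, p = 0.00433, adjusted over 5 comparisons 0.0108), although the groups' ranges overlapped. It includes the rise of Cpt1a already given, and Cpt1b, with few counts, did not pass by itself.

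The other shuttle genes did not pass the test. Cpt2, on the matrix side of the inner membrane, had a fitted change of -0.12 ± 0.06 (adjusted p = 0.0987) and Slc25a20, the carnitine-acylcarnitine carrier, of 0.15 ± 0.07 (adjusted p = 0.127). Mlycd, malonyl-CoA decarboxylase, which lifts the brake on Cpt1, was at 13.6 to 16.4 CPM (median 14.1) in 2% HS and 10.9 to 15.7 CPM (median 13.2) in SD, with adjusted p = 0.364, and at 8.91 to 16.4 CPM over all libraries.

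The 11 beta-oxidation enzymes were among the most evenly expressed members: 1 rose and 2 fell, and the largest change was 0.26 ± 0.05. Over all tested genes 13.9% rose and 13.9% fell. Acadl, long-chain acyl-CoA dehydrogenase, had the highest level per kilobase of the list, 54.9 ± 2.67 CPM per kilobase in 2% HS. Its level was 104 to 117 CPM (median 110) in 2% HS and 126 to 140 CPM (median 131) in SD, without overlap (adjusted p = 7.7e-06). Echs1, the short-chain enoyl-CoA hydratase, was at 36.7 to 43.3 CPM (median 39.1) in 2% HS and 29.5 to 37.3 CPM (median 34.6) in SD, with overlapping groups and a fall of -0.21 ± 0.06 (adjusted p = 0.00513). Acaa2, the mitochondrial 3-ketoacyl-CoA thiolase, was at 40.9 to 45.6 CPM (median 43.7) in 2% HS and 35.8 to 43.8 CPM (median 39.1) in SD. Its change of -0.14 ± 0.05 (adjusted p = 0.0388) missed the threshold in 8 of 37 alternative fits.

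The remaining enzymes did not pass in SD vs. 2% HS. Hadha and Hadhb, the subunits of the trifunctional protein that acts on long chains, had fitted changes of 0.02 ± 0.03 and -0.07 ± 0.04, and lay between 181 and 205 CPM and between 62.97 and 80.02 CPM over all 30 libraries. Acadvl and Acads, the very-long-chain and short-chain dehydrogenases, had changes of 0.05 ± 0.05 and 0.15 ± 0.07, at 65.5 to 87.6 CPM and 29.1 to 50.2 CPM. Of the Acadvl exonic bases, 42.9% overlap Dvl2 on the opposite strand. Acadm, for medium chains, Hadh, the short-chain 3-hydroxyacyl-CoA dehydrogenase, and Eci1 and Decr1, which handle unsaturated chains, had changes between -0.08 and 0.06. Eci1 lay between 17.8 and 25.1 CPM and Decr1 between 25.9 and 35.7 CPM. The 3 electron transfer genes Etfa, Etfb and Etfdh, which pass electrons from the dehydrogenases to ubiquinone, did not pass either. Etfb had a change of 0.23 ± 0.10 (adjusted p = 0.0841) and Etfdh, at 56.4 to 68.04 CPM over all libraries, of 0.08 ± 0.04 (adjusted p = 0.166).

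Of the 5 tested genes of the lipid droplet, thioesterases and uncoupling, 4 fell and none rose. Over all tested genes 13.9% fell and 13.9% rose, and the 4 include the close copies Acot1 and Acot2. Ucp3, the muscle uncoupling protein, was at 1.87 to 3.77 CPM (median 2.44) in 2% HS and 0.687 to 1.26 CPM (median 1.08) in SD. The groups were apart, and the change of -1.31 ± 0.23, 2.48-fold lower, was the largest fall in the list (adjusted p = 1.4e-05). Ucp2, its neighbour on chromosome 7 and the form found in many tissues, stayed between 123 and 148 CPM over all 30 libraries. Plin2, a lipid droplet coat protein, was at 39.6 to 45.7 CPM (median 41.8) in 2% HS and 31.5 to 37.9 CPM (median 34.6) in SD, a fall of -0.28 ± 0.06 (adjusted p = 0.00014). Plin5, the droplet protein of oxidative muscle, was at most 0.169 CPM in any library and was removed by the filter.

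Acot1 and Acot2, cytosolic and mitochondrial thioesterases that free fatty acids from long-chain acyl-CoA, fell together. Acot2 was at 21.5 to 29.6 CPM (median 25.8) in 2% HS and 11.4 to 16.4 CPM (median 12.8) in SD, a change of -0.95 ± 0.08 (adjusted p = 6.7e-14). Acot1 was at 5.88 to 8.502 CPM (median 7.45) in 2% HS and 3.496 to 5.16 CPM (median 4.29) in SD, a change of -0.78 ± 0.13 (adjusted p = 8.6e-06). Neither gene's groups overlapped. The 2 genes are close copies and neighbours on chromosome 12, so their separate values are uncertain: their coding sequences were identical at 1178 of 1236 aligned bases (95.31%), with a longest identical run of 273 bases, longer than the 150-base reads. Of the stretches of 50 bases, 27.7% of those of Acot2 and 19.3% of those of Acot1 occur in another gene, mostly the other of the pair. The first 150 aligned coding bases, in which the copies differ more often than over the whole alignment, are shown as an example. The 13 positions that differ are in capitals (GRCm38, plus strand, chr12:84009510-84009659 for Acot1 and chr12:83988025-83988174 for Acot2).
Acot1: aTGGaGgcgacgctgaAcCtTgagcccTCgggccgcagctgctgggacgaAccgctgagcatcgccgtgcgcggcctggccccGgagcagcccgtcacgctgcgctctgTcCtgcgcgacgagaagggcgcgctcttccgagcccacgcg
Acot2: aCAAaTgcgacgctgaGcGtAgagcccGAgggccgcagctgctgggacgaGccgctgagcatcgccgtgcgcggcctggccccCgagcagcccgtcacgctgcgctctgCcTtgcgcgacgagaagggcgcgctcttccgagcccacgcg

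**Figure D3:**
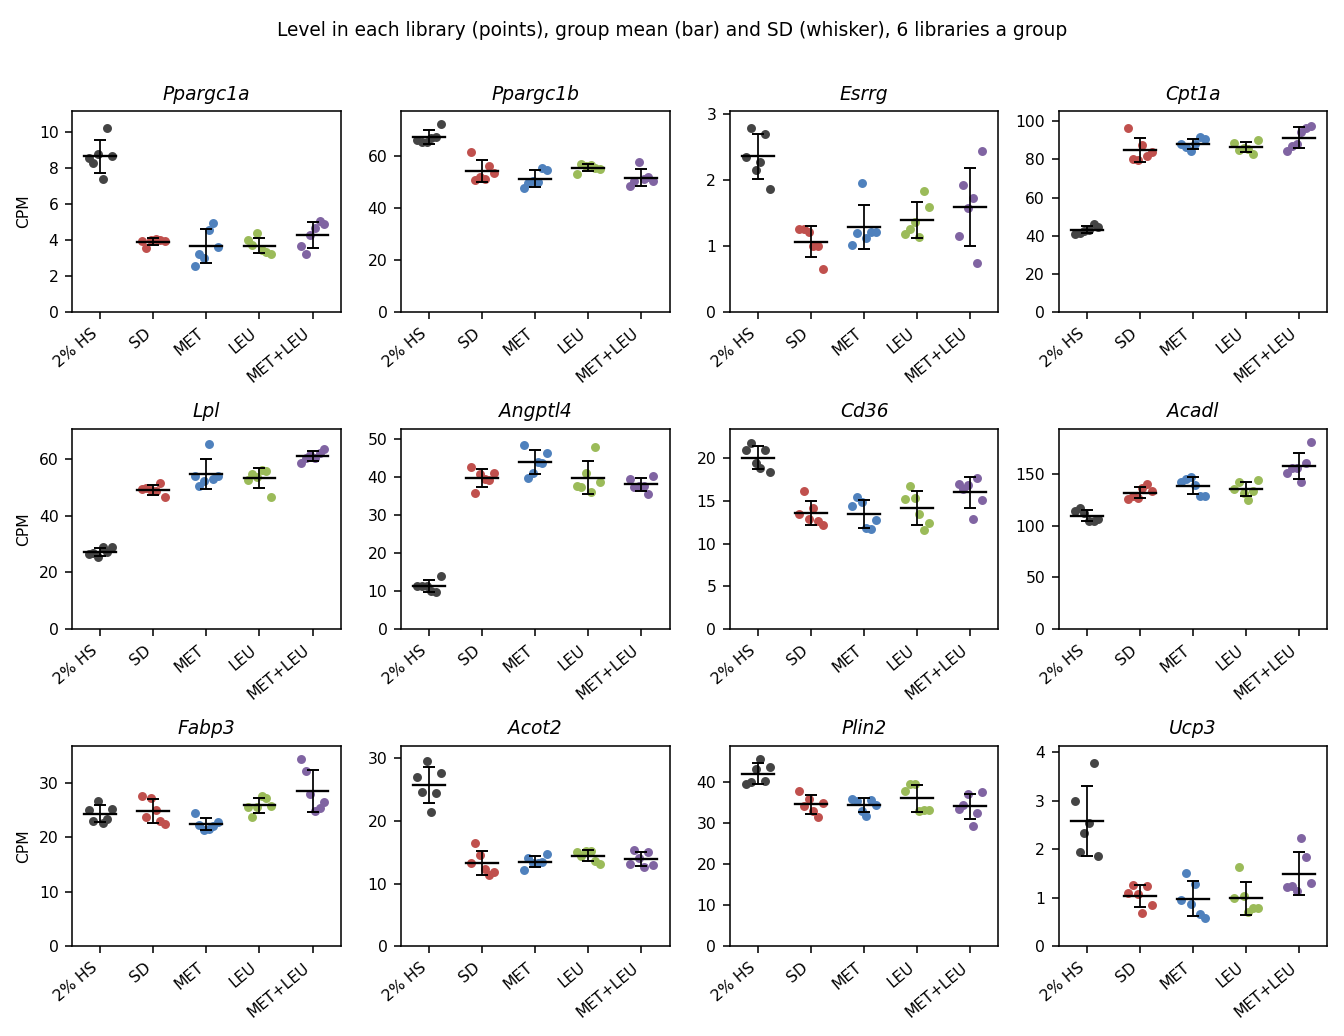
Level in CPM (y axis) of 12 members in each of the 30 libraries, by group (x axis), with points for libraries, a bar for the group mean and whiskers for the standard deviation over 6 libraries. Angptl4 and Cpt1a were higher and Ppargc1a and Acot2 lower in every SD library than in any 2% HS library.

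Metformin or leucine alone moved no member past the threshold. In MET vs. SD, 0 of 37 members passed, where 0.0754% of all tested genes rose and 0.0817% fell. At an unadjusted p under 0.05, 3 members were higher and 2 lower. In LEU vs. SD, 0 of 37 passed, where 0.233% of all tested genes rose and 0.321% fell, with 2 members higher and 0 lower at an unadjusted p under 0.05. DESeq2 and limma-voom also called 0 members in each. Lpl had the smallest adjusted p in both comparisons. Its level was 50.3 to 65.3 CPM (median 53.3) in MET and 46.6 to 56.1 CPM (median 54.1) in LEU, which overlapped SD. The changes from SD were 0.16 ± 0.05 with MET (adjusted p = 0.204) and 0.11 ± 0.05 with LEU (adjusted p = 0.403).

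The intervals give the range of changes that the data allow. For Ppargc1a, the 95% interval was -0.37 to 0.17 in MET vs. SD and -0.36 to 0.18 in LEU vs. SD. For Cpt1a it was -0.03 to 0.14 and -0.06 to 0.11. The intervals of Esrrg, with changes of 0.25 ± 0.23 and 0.38 ± 0.23, were wider, -0.21 to 0.71 and -0.07 to 0.83. None of the 4 ratio comparisons of MET or LEU with SD passed, with adjusted p between 0.179 and 0.931 in the exact permutation tests.

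In MET+LEU vs. SD, 5 members passed as higher, a share near that of all tested genes, and none as lower. Of the 37 tested, 13.5% rose, where 10.6% of all tested genes rose, and 0 fell, where 7.80% of all tested genes fell, with 10 higher and 3 lower at an unadjusted p under 0.05. The 5 were Lpl, Acadl, Acadm, Etfa and Fabp3, and their changes were between 0.16 and 0.31. When only the groups compared were fitted, 2 passed, Lpl and Acadl. Without MET+LEU replicate 6, 4 members passed, since Acadm then had a change of 0.14 and an adjusted p of 0.0545. Leaving out SD replicate 2 or SD replicate 5, Acadm, Etfa and Fabp3 missed the threshold, while Cd36 passed in the former fit and Esrra, as lower, in the latter, so that 3 members were called in each. The comparisons of MET, LEU and MET+LEU with SD share the 6 SD libraries, as does SD vs. 2% HS.

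Lpl was at 46.4 to 51.6 CPM (median 49.1) in SD and 58.6 to 63.5 CPM (median 60.8) in MET+LEU. Every MET+LEU library lay above every SD library, with a change of 0.31 ± 0.05 (adjusted p = 1.6e-05). Acadl was at 126 to 140 CPM (median 131) in SD and 143 to 181 CPM (median 156) in MET+LEU. These groups were apart too, at 0.26 ± 0.04 (adjusted p = 5.9e-05). Without MET+LEU replicate 6, the changes were 0.30 for Lpl (adjusted p = 2.03e-05) and 0.21 for Acadl (adjusted p = 0.000181). The other 3 overlapped SD. Acadm, medium-chain acyl-CoA dehydrogenase, was at 48.2 to 60.3 CPM (median 53.6) in SD and 56.9 to 64.2 CPM (median 60.4) in MET+LEU, at 0.16 ± 0.05 (adjusted p = 0.0204). Etfa, the alpha subunit of the electron transfer flavoprotein, was at 55.6 to 75.002 CPM (median 62.5) and 65.2 to 78.5 CPM (median 73.8), at 0.18 ± 0.05 (adjusted p = 0.0134), and at 0.17 without MET+LEU replicate 6 (adjusted p = 0.0277). The flavoprotein takes the electrons that acyl-CoA dehydrogenases release. Of the 3 electron transfer genes only Etfa passed here, and of the 11 beta-oxidation enzymes only Acadl and Acadm, with fitted changes down to -0.14 in the others.

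Fabp3 was at 22.5 to 27.7 CPM (median 24.4) in SD and 24.8 to 34.4 CPM (median 27.2) in MET+LEU, a change of 0.20 ± 0.07 (adjusted p = 0.0307), and of 0.21 without MET+LEU replicate 6 (adjusted p = 0.024). Its call was lost in 6 of 37 alternative fits, with an adjusted p of up to 0.166. Of its stretches of 50 bases, 37.3% occur in another gene, mainly the pseudogene Fabp3-ps1, which was at most 0.652 CPM in any library. The coactivators did not pass against SD: Ppargc1a was at 3.22 to 5.05 CPM (median 4.46) in MET+LEU, a fitted change of 0.12 ± 0.14 with an interval of -0.14 to 0.39 (adjusted p = 0.588), and Ppargc1b had -0.07 ± 0.05 (adjusted p = 0.363). The widest fitted values belonged to low-count genes that did not pass: Esrrg at 0.56 ± 0.23 (adjusted p = 0.0771) and Ucp3 at 0.54 ± 0.25 (adjusted p = 0.126). Cd36 missed at 0.23 ± 0.09 (adjusted p = 0.061) and passed when the replicate number was taken as a block, where 7 members were called.

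Acadm is a textbook target of the estrogen-related receptors, and the bases upstream of it are shown because it was the only member whose promoter window held the core of their element. The cores searched on both strands were AAGGTCA for the ERR element, the direct repeat of AGGTCA with 1 base between for the PPAR element, and CGCATGCG for the site of NRF1. The ERR core was in 4.72% of all 32851 windows, which span 250 bases before to 50 after a start, and in 1 of 38 member windows, that of Acadm. The PPAR repeat, which contains AGGTCA and can overlap the ERR core, was in 0.0396% of all windows and in 0 member windows. The NRF1 core was in 1.87% of all windows and in 3 of 38 member windows, those of Acadm, Etfdh and Ppara. Windows were given for 32 members. A match is a description of the letters and no evidence of binding, and a window without these letters says nothing of binding elsewhere. In the sequence (RefSeq, GRCm38.p6, chr3:153944644-153944893, minus strand, 5′ to 3′) the capitals mark the ERR core, which reads on the other strand as TGACCTT, and then the NRF1 core.
Acadm upstream: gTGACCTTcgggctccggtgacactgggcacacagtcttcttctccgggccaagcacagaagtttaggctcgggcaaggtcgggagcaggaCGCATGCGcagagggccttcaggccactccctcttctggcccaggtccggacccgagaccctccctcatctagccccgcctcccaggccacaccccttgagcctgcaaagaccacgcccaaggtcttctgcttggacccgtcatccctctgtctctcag

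Against the single agents, MET+LEU differed in few members, and the shares that rose were near those of all tested genes. In MET+LEU vs. LEU, 2 of 37 members rose (5.41%) and 0 fell, where 4.61% of all tested genes rose and 1.67% fell. In MET+LEU vs. MET, 3 of 37 rose (8.11%) and 1 fell, where 5.54% of all tested genes rose and 3.15% fell. With upper-quartile scaling the genes called over the whole table were 417 higher and 356 lower against LEU, in place of 733 and 266, and 631 and 637 against MET, in place of 881 and 501. Without MET+LEU replicate 6 they were 312 and 145 against LEU and 426 and 300 against MET. Against LEU they were also 426 and 223 without LEU replicate 1, 279 and 117 without LEU replicate 3, 352 and 183 without LEU replicate 4, and 369 and 173 without LEU replicate 5. Leaving out a 2% HS library, which is in neither group, gave between 513 and 276 (replicate 4) and 707 and 243 (replicate 5) against LEU. DESeq2 size factors gave 580 and 294 against LEU and 759 and 554 against MET. The shares over all tested genes thus depend on the scaling and on the libraries fitted. Acadl was higher than in LEU by 0.22 ± 0.04 (adjusted p = 0.0028) and than in MET by 0.18 ± 0.04 (adjusted p = 0.00699). Without MET+LEU replicate 6 these were 0.17 (adjusted p = 0.0144) and 0.13 (adjusted p = 0.0414). Its level was 125 to 145 CPM (median 135) in LEU and 129 to 148 CPM (median 141) in MET, and both overlapped MET+LEU at the margin.

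Lpl was higher than in LEU by 0.20 ± 0.05, without overlap (adjusted p = 0.0129), and by 0.18 without MET+LEU replicate 6 (adjusted p = 0.0358). Against MET its change was 0.15 ± 0.05 (adjusted p = 0.0421), and this call was lost in 32 of 37 alternative fits, with an adjusted p of 0.11 without MET+LEU replicate 6, where Hadhb passed instead (0.14, adjusted p = 0.0445). Fabp3 was at 21.4 to 24.5 CPM (median 22.2) in MET, below every MET+LEU library, at 0.35 ± 0.07 (adjusted p = 0.0009), and at 0.36 without MET+LEU replicate 6 (adjusted p = 0.000449). Angptl4 was the only member lower, at 39.7 to 48.2 CPM (median 43.8) in MET and 35.6 to 40.2 CPM (median 37.6) in MET+LEU, with a change of -0.21 ± 0.06 (adjusted p = 0.0281). Its call was lost without MET replicate 1, MET replicate 4 or MET+LEU replicate 5, with an adjusted p of up to 0.0731. Without MET+LEU replicate 6 it was -0.23 (adjusted p = 0.0183).

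The interaction of MET and LEU, which asks whether the combination departs from the sum of the separate changes on the log2 scale, was called for 0 of 37 members, where 0.0377% of all tested genes were higher than additive and 0.0126% lower. DESeq2 and limma-voom called 0 members as well. At an unadjusted p under 0.05, 3 members were higher and 1 lower. Fabp3 had 0.29 ± 0.10 (adjusted p = 0.298) and Acadl 0.14 ± 0.06 (adjusted p = 0.477), neither past the threshold.

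MET+LEU myotubes still differed from 2% HS across the list. In MET+LEU vs. 2% HS, 10 members rose (27.03%, where 22.1% of all tested genes rose) and 13 fell (35.1%, where 20.3% of all tested genes fell). Without MET+LEU replicate 6 these were 11 and 12, as Acadvl then passed as higher (0.13, adjusted p = 0.0303) and Cpt1b no longer passed. Ppargc1a was lower than in 2% HS by -1.02 ± 0.12 (adjusted p = 3.4e-09), Acot2 by -0.89 ± 0.08 (adjusted p = 3.2e-13) and Cd36 by -0.33 ± 0.09 (adjusted p = 0.0016). The groups were apart for each of these. Esrrg at -0.56 ± 0.20 (adjusted p = 0.023) and Ucp3 at -0.77 ± 0.22 (adjusted p = 0.00369) overlapped 2% HS.

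On the higher side, Angptl4 was above 2% HS by 1.76 ± 0.07 (adjusted p = 7.3e-25), Lpl by 1.156 ± 0.05 (adjusted p = 4.4e-23), Cpt1a by 1.08 ± 0.05 (adjusted p = 1.4e-24) and Acadl by 0.52 ± 0.05 (adjusted p = 2.5e-13). Cpt1a was at 84.3 to 97.4 CPM (median 91.4) in MET+LEU, which overlapped SD. Acadm at 0.17 ± 0.05, Etfa at 0.22 ± 0.05, Fabp3 at 0.23 ± 0.07 and Hadh at 0.17 ± 0.05 passed with smaller changes. Etfb, the beta subunit of the flavoprotein, was at 5.67 to 7.31 CPM (median 6.68) in 2% HS and 7.32 to 9.498 CPM (median 8.25) in MET+LEU, just apart, at 0.36 ± 0.10 (adjusted p = 0.00367). Of its exonic bases, 53% also belong to the gene model Gm45233 on the same strand, which held 0 to 4 counts a library.

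Hadh was at 35.5 to 41.96 CPM (median 36.8) in 2% HS, 37.7 to 41.5 CPM (median 39.05) in SD and 37.6 to 45.8 CPM (median 43.2) in MET+LEU, with overlap throughout. Cpt2 was at 28.9 to 35.1 CPM (median 32.7) in 2% HS and 25.1 to 31.8 CPM (median 27.8) in MET+LEU, lower at -0.20 ± 0.06 (adjusted p = 0.00424). Slc25a20 was at 19.2 to 21.6 CPM (median 19.9) and 20.5 to 25.3 CPM (median 22.003), and its call at 0.17 ± 0.07 (adjusted p = 0.0468) was lost in 29 of 37 alternative fits. Cpt1b, at 0.2197 to 0.803 CPM (median 0.376) in MET+LEU, passed at -0.85 ± 0.34 (adjusted p = 0.0402) and was lost in 10 of them, among them the fit without MET+LEU replicate 6 (adjusted p = 0.0693). The ratio of Cpt1a to Cpt1b was higher than in 2% HS by 2.01 log2 units and that of Ppargc1a to Ppargc1b lower by -0.64 (exact permutation tests, adjusted p = 0.0108 and 0.00541).

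**Figure D4:**
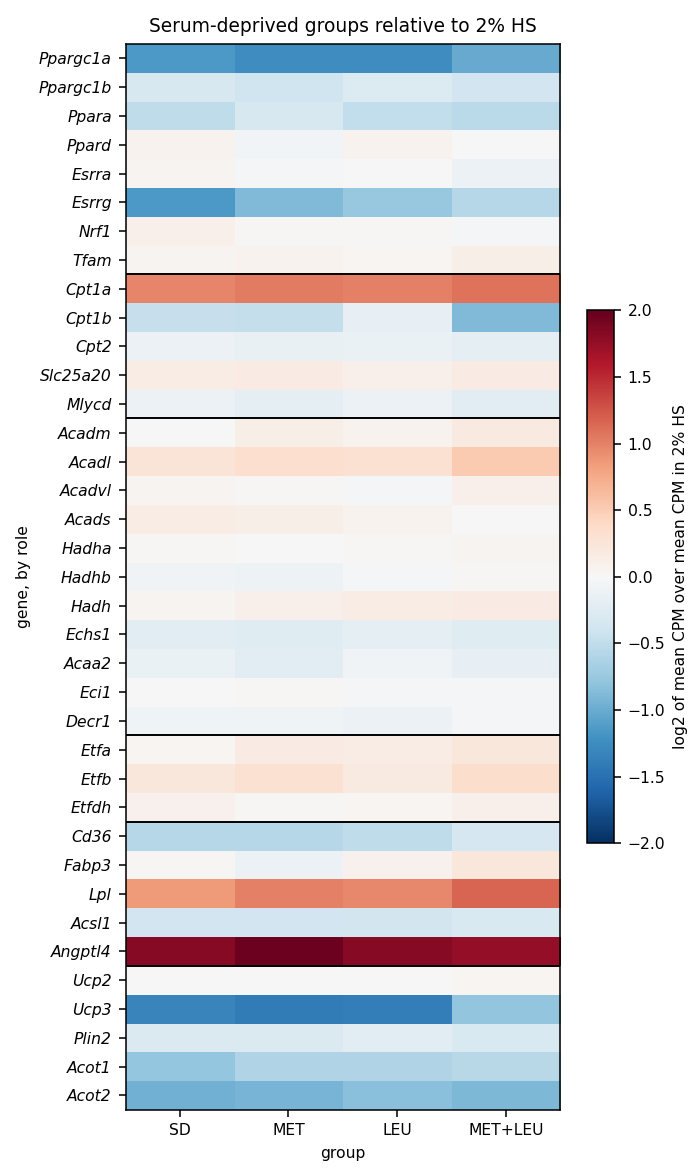
Colour shows the log2 of the mean CPM of each serum-deprived group (x axis) over the mean CPM of 2% HS for the 37 tested members (y axis, by role), red for higher and blue for lower, on a scale from -2 to 2. Cpt1a, Lpl and Angptl4 are red and Ppargc1a, Ucp3, Acot1 and Acot2 blue in all 4 serum-deprived groups, which share the 2% HS libraries as their reference.

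Other genes of the same pathways were read from 6 lists. In SD vs. 2% HS, peroxisomal beta-oxidation had 2 higher and 3 lower of 17 tested, other mitochondrial acyl-CoA and carnitine genes 3 and 4 of 17, fatty acid uptake and binding 3 and 2 of 9, lipid droplet and lipolysis 1 and 3 of 12, PPAR and PGC-1 partners 1 and 3 of 19, and other PPAR target genes 1 and 3 of 7, where 13.9% of all tested genes rose and 13.9% fell. The medians of the lists were between -0.18 and 0.04, against 0.00 for all tested genes. Perm1, a muscle regulator that acts with PGC-1alpha, averaged 0.5796 ± 0.169 CPM in SD (± standard deviation, n = 6) and 2.52 ± 0.561 CPM in 2% HS (-2.11 ± 0.29, adjusted p = 1.1e-07). Rxra, the partner receptor of the PPARs, was higher (0.38 ± 0.04, adjusted p = 4.5e-10).

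Among the 7 tested genes of the list of other PPAR targets, 1 rose and 3 fell. Txnip, a thioredoxin-binding protein that restrains glucose uptake, averaged 110 ± 13.9 CPM in SD and 38.1 ± 3.89 CPM in 2% HS (1.54 ± 0.09, adjusted p = 3.9e-13). Fgf21, a hormone of fasting (-1.01 ± 0.10, adjusted p = 3.2e-09), and Pdk4, the kinase that turns off pyruvate oxidation (-0.49 ± 0.06, adjusted p = 2e-08), were lower. In the lists of uptake, lipid droplet and peroxisomal genes, Vldlr, the very-low-density lipoprotein receptor (-1.20 ± 0.11, adjusted p = 3e-09), and Plin4, a droplet protein (-1.20 ± 0.15, adjusted p = 1.1e-08), were lower. Acox2, a peroxisomal acyl-CoA oxidase (-1.54 ± 0.30, adjusted p = 7.3e-05), was lower as well. Cav1, the caveolar coat protein, was higher (0.80 ± 0.04, adjusted p = 7.7e-21), as was Lipe, hormone-sensitive lipase (0.38 ± 0.11, adjusted p = 0.00664). Of the other mitochondrial acyl-CoA and carnitine genes, Acsl6 (-0.42 ± 0.06, adjusted p = 1.7e-07) and Acsl4 (-0.33 ± 0.04, adjusted p = 3.3e-09) were lower. Echdc2 was higher (0.33 ± 0.11, adjusted p = 0.0233).

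With metformin or leucine alone, 0 genes of these lists passed against SD. In MET+LEU vs. SD, the counts higher and lower were 2 and 1 of 17 tested for peroxisomal genes, 5 and 0 of 17 for other mitochondrial acyl-CoA genes, 1 and 0 of 9 for uptake, 0 and 0 of 12 for the lipid droplet, 4 and 4 of 19 for PPAR and PGC-1 partners and 0 and 0 of 7 for other PPAR targets, where 10.6% of all tested genes rose and 7.80% fell. Dbi, the acyl-CoA binding protein, averaged 102 ± 11.8 CPM in MET+LEU and 75.04 ± 9.63 CPM in SD (0.44 ± 0.07, adjusted p = 1.6e-05). Scp2, the peroxisomal thiolase and sterol carrier (0.21 ± 0.05, adjusted p = 0.00133), Acsl3, an acyl-CoA synthetase of the endoplasmic reticulum (0.25 ± 0.05, adjusted p = 0.00105), and Tfb2m, a mitochondrial transcription factor (0.26 ± 0.05, adjusted p = 0.00046), were higher. Mef2c, a muscle transcription factor that PGC-1alpha coactivates, was higher (0.24 ± 0.04, adjusted p = 3.3e-05), and Rxrb was lower (-0.38 ± 0.09, adjusted p = 0.00336). Acot13 (0.29 ± 0.09, adjusted p = 0.016) and Acsl6 (0.25 ± 0.06, adjusted p = 0.00248), of the mitochondrial acyl-CoA list, were higher too. The peroxisomal gene with the largest called change, Acot8, was lower (-0.38 ± 0.11, adjusted p = 0.00954).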

How the data were processed

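RNA sequencing of 30 libraries of C2C12 myotubes was analysed, 6 in each of 5 groups. Per the labels and the study's methods, the authors extracted total RNA, depleted rRNA, and sequenced stranded libraries with 150-base paired reads. The submitters' processing notes name cutadapt 1.16, STAR 2.7.6a, featureCounts 1.6.3, DESeq2 1.30.1 and GRCm38. The annotation release, the strand setting and the handling of shared reads are not given in the sources used here. The deposited values are raw counts per Ensembl gene, of which 55227 of 55487 identifiers matched GENCODE M21, which gave symbols and coordinates. The other 260 held 0.00434% of counts.

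Genes were kept by edgeR 4.0.16 filterByExpr (R 4.3.3, minimum count 10, minimum total 15, group size 6), libraries were scaled by TMM, and all 30 were fitted in 1 quasi-likelihood model (glmQLFit, robust, a mean for each group). Each contrast had an F test per gene, p-values were adjusted after Benjamini and Hochberg across every tested gene, and an adjusted p under 0.05 counted as a call. The SE of a log2 fold change is its size over the root of F, and a 95% interval spans 1.96 SE to each side. CPM values use TMM-scaled library sizes. Ratios of 2 genes added 0.5 counts to each and were compared by exact permutation tests. Alternatives were DESeq2 1.42.0 (Wald test and size factors), limma-voom (limma 3.58.1), upper-quartile scaling, a looser filter, separate fits, a replicate block and leaving out each library. The tests were also run on simulated data. The members and the lists of related genes were chosen with earlier results of these data known. Members that passed in at least 1 comparison are given by level and the others by range. The genes named from each related list are some of the up to 3 called genes with the largest change in a comparison.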

Additional observations from a re-analysis of the deposited data

Results flagged for a closer look

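In each group of 6 libraries, the highest or lowest level of each tested member was flagged where it stood apart from the other 5 by more than Dixon's 95% critical value. Of 185 such groups, 13 were flagged, where chance flags about 1 in 20. Among the regulators, Ppargc1a was at 3.52 CPM in SD replicate 2, where the next SD library was at 3.93 CPM. Ppargc1b was at 72.4 CPM in replicate 6 of 2% HS, above 67.3 CPM in the next, and Ppara was at 0.913 CPM in replicate 1 of 2% HS, below 1.47 CPM. Esrrg was at 1.95 CPM in MET replicate 3, above 1.22 CPM.

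Among uptake genes, Lpl was at 65.3 CPM in MET replicate 4, above 54.1 CPM in the next MET library, and at 46.6 CPM in LEU replicate 6, below 52.6 CPM. Angptl4 was at 14.04 CPM in replicate 6 of 2% HS, above 11.3 CPM, and this library still lay below every SD library. Among the enzymes, Hadha was at 205 CPM in MET+LEU replicate 2, above 192 CPM. Acaa2 was at 34.04 CPM in MET replicate 4, below 37.3 CPM. Ucp3 was at 1.63 CPM in LEU replicate 2, above 1.04 CPM.

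Mlycd was at 16.4 CPM in replicate 5 of 2% HS, above 14.3 CPM. MET+LEU replicate 6, the library with the highest share of rRNA counts, was the lowest of its group for Mlycd, at 8.91 CPM below 12.7 CPM, and for Acads, at 29.1 CPM below 39.9 CPM. Without this library, Acads changed by -0.08 (adjusted p = 0.395) and Mlycd by -0.03 (adjusted p = 0.883) from SD to MET+LEU.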

How the results depend on the processing

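Under 7 other settings and with each of 30 libraries left out, every change of a member called kept its direction, with the call kept in 1714 refits and lost in 99. The counts of members called stayed within 1.5 times the reported count except in MET+LEU vs. SD, where fitting only the groups compared gave 2 in place of 5 and leaving out a library gave 3 to 7, and in MET+LEU vs. MET, where leaving out MET replicate 1 or MET+LEU replicate 5 gave 2 in place of 4 and the range was 2 to 4. The cause was not tested. The difference of the Cpt1a to Cpt1b ratio in MET vs. SD, near 0 and not called, was -0.28 to 0.18 with a library left out and turned positive without MET replicate 2 (0.03), MET replicate 3 (0.08), MET replicate 4 (0.00471), SD replicate 1 (0.0117), SD replicate 2 (0.0118) or SD replicate 6 (0.18), and that of the Ppargc1a to Ppargc1b ratio in MET vs. SD was -0.14 to 0.01, positive without MET replicate 1 (0.0125). Calls lost most often were Lpl in MET+LEU vs. MET (32 of 37), Slc25a20 (29) and Cpt1b (10) in MET+LEU vs. 2% HS, Acaa2 in SD vs. 2% HS (8), Acadm and Fabp3 in MET+LEU vs. SD (6 each), Etfa in MET+LEU vs. SD and Angptl4 in MET+LEU vs. MET (3 each), and Esrrg in MET+LEU vs. 2% HS (2). Mlycd, not called in MET+LEU vs. 2% HS, passed as lower in 23 alternatives, and Esrra passed as lower in MET+LEU vs. SD in 8.

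With the replicate number as a block, the members called were 15 in SD vs. 2% HS, 7 in MET+LEU vs. SD, 23 in MET+LEU vs. 2% HS, 2 against LEU and 5 against MET, and 0 in the other comparisons. Libraries with the same number deviated together little (mean correlation 0.0157 over 60 pairs, -0.00314 for different numbers), so the numbers were not taken as pairs. The 6 same-number pairs of MET+LEU and SD were all slightly positive (0.0119 to 0.0583), and those of SD and 2% HS were -0.0609 to 0.0635.

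Over all genes, the calls in MET vs. SD (12 higher, 13 lower) became 65 and 55 with DESeq2, 49 and 31 with limma-voom, 28 and 24 with the block, and 111 and 49 without MET+LEU replicate 6, with 2 to 111 higher and 2 to 49 lower when any library was left out. Those in LEU vs. SD (37 and 51) became 88 and 80, 108 and 82, 129 and 68 when only the groups compared were fitted, and 168 and 101 without MET+LEU replicate 6, with 19 to 168 and 22 to 101 when any library was left out. Those in MET+LEU vs. SD (1690 and 1241) became 1158 and 701 with limma-voom and 941 and 481 when only the groups compared were fitted, which likewise gave 208 and 103 against LEU and 354 and 235 against MET. The interaction (6 and 2) became 24 and 4 with DESeq2. Members with few counts, such as Cpt1b, Ppara, Esrrg and Ucp3, have intervals too wide to show small changes.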
